A study of Mus musculus with 8 samples.

Results

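Extracellular nucleotides and adenosine were examined through 10 genes expressed by tumor-associated macrophages (TAMs): the ectoenzymes Entpd1 and Nt5e, the adenosine receptors Adora2a and Adora2b, the ion channels P2rx4 and P2rx7, and the P2Y receptors P2ry6, P2ry12, P2ry13 and P2ry14. The genes were chosen by name, with earlier results of these data known, and all 10 were found among the 26939 genes of the joined count tables. The TAMs came from female mice of 8 to 14 weeks bearing orthotopic EO771 breast tumors, and were sorted at day 21 by flow cytometry (viable, positive for CD45, CD11b and F4/80, negative for Gr-1). Bulk poly-A RNA-seq gave 8 libraries in 4 groups of 2. WT mice were C57BL/6J. In Unc93b1 3d/3d mice, signaling through the endosomal receptors TLR3, TLR7 and TLR9 is lost, because the 3d allele disables the chaperone that delivers these receptors to endosomes. The αMARCO groups of both genotypes received 100 µg of the rat IgG1 antibody ED31 against the scavenger receptor MARCO on days 3, 6, 9 and 12. The control groups are labelled untreated, their count columns are named PBS, and the treatment protocol names a rat IgG1 isotype antibody, so the injection given to the controls is not settled. Each control library was pooled from 3 mice, and pooling of the αMARCO libraries was not given in the sources used here. For the second Unc93b1 3d/3d control library, 1 label gives the genotype as 3d/4d whereas its title gives 3d/3d.

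ATP that leaves a cell is a danger signal for macrophages. Entpd1 encodes CD39, which strips ATP and ADP down to AMP, and Nt5e encodes CD73, which turns AMP into adenosine. ATP opens the P2X channels, and the P2X7 channel is a classical trigger of the NLRP3 inflammasome, whereas P2Y receptors are G protein-coupled and sense ADP, UDP or UDP-sugars. Adenosine acts on the receptors that Adora2a and Adora2b encode, which raise cyclic AMP and are known for restraining T cells and myeloid cells in tumors.

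The library totals ranged from 15182618 to 26411936 counts, and 3 counts, the smallest amount taken as detected, corresponded to 0.114 to 0.198 CPM (counts scaled to library size). The macrophage markers summed to between 9570 and 13700 CPM in the 8 libraries, with none of the 10 genes at 0. Unc93b1 itself stood at 848 and 965 CPM among the WT controls and at 539 and 660 CPM among the Unc93b1 3d/3d controls; the 3d allele is a missense change, so this RNA level does not check the genotype. One library stood apart. The second Unc93b1 3d/3d αMARCO library lay at a Euclidean distance of 132 to 144 on the log2 CPM scale (16620 genes) from the other 7, which lay 56.1 to 123 from each other, and its ribosomal protein genes took 5.22% of the counts against 2.66 to 4.09% elsewhere. The chi-square between the 2 Unc93b1 3d/3d αMARCO libraries was 115 per gene, and 8.21 to 13.2 in the other pairs. For the 10 genes, the counts of calls that rest on this group are therefore given with both libraries and without each of them. Values are added for genes whose calls changed.

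The 10 genes covered a wide range of levels. Outside the receptor cluster of chromosome 3, they lie in GRCm38 at chr19:40612366-40741602 (Entpd1), chr9:88327197-88372092 (Nt5e), chr10:75316877-75334784 (Adora2a), chr11:62248984-62266453 (Adora2b), chr5:122707544-122729738 (P2rx4) and chr5:122643911-122691432 (P2rx7) on the plus strand, and at chr7:100937630-100974649 (P2ry6) on the minus strand. On the length-scaled FPKM scale, P2ry6 had the highest mean over the 8 libraries (58.5), followed by Entpd1 (42.8), P2rx4 (27.5), Adora2b (17.6), P2rx7 (16.3), P2ry12 (9.62), P2ry13 (7.29), P2ry14 (3.10), Adora2a (2.19) and Nt5e (1.86). P2ry6 was above Entpd1, and Entpd1 above P2rx4, in 8 of 8 libraries. The order of Adora2b and P2rx7 held in 6 of 8 libraries, that of P2ry12 and P2ry13 in 6 of 8, and that of Adora2a and Nt5e in 4 of 8, so these neighbors were not separated by their spread. The smallest count behind any value was 31, for Adora2a, and all 10 genes passed the filter on low counts in every comparison. The lowest and highest FPKM of a gene differed 1.56- to 1.66-fold for P2rx7, Entpd1, Adora2b, P2ry6 and P2rx4, and 11.1-fold for Adora2a, the widest range of the 10.

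**Figure D1:**
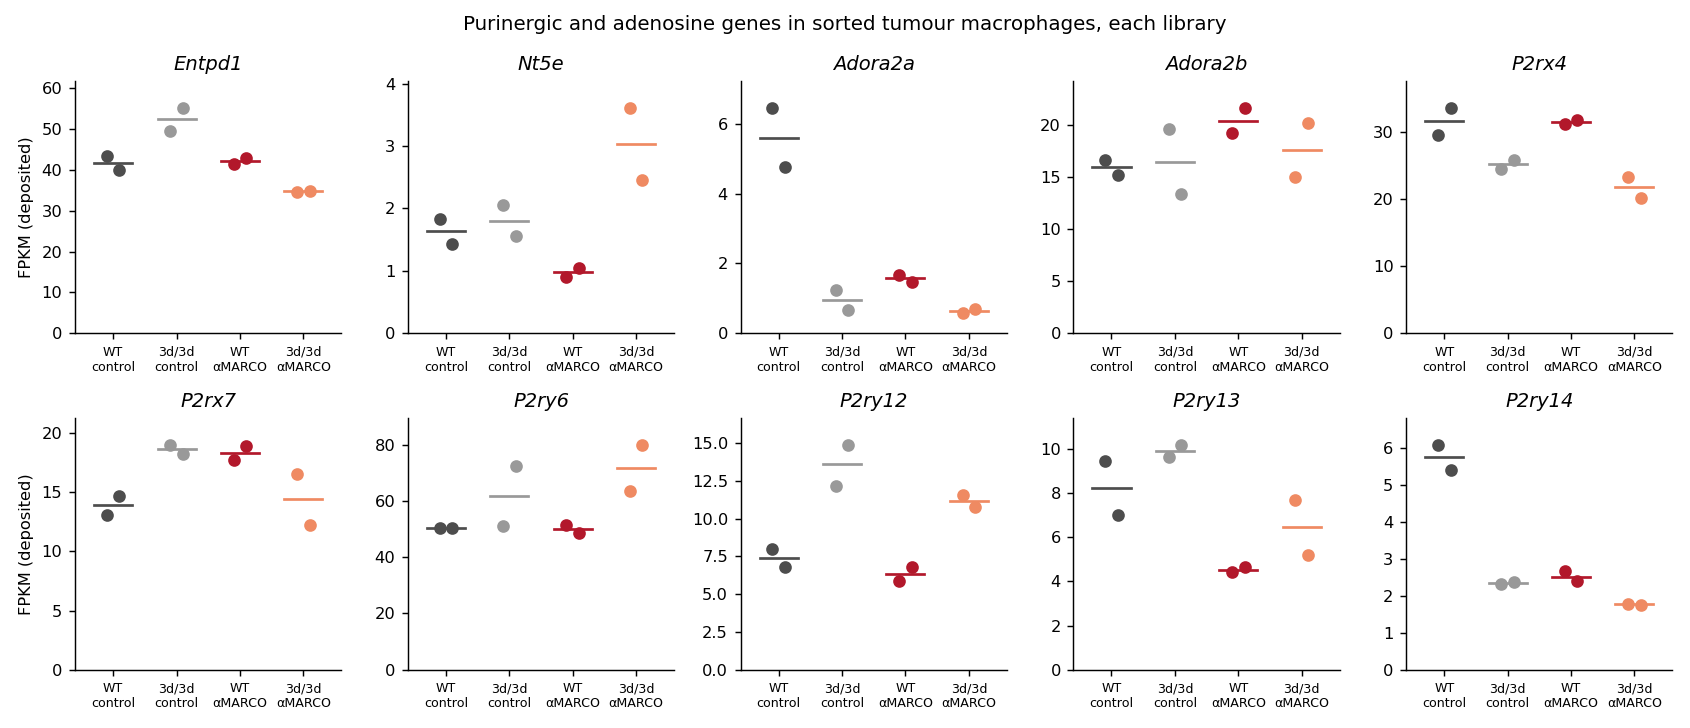
Deposited FPKM (vertical axis, starting at 0, with its own scale in each panel) of the 10 genes in each library (points) with the mean of the 2 libraries of a group (horizontal line). Adora2a and P2ry14 were highest in the 2 WT control libraries, P2ry12 was higher in all 4 Unc93b1 3d/3d libraries than in the 4 WT libraries, and Nt5e was lowest in the 2 WT αMARCO libraries.

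The first comparison asked how TAMs with and without functional endosomal TLR signaling differ in control tumors. Of the 10 genes, 2 were called higher and 1 lower for WT than for Unc93b1 3d/3d control TAMs, with a call defined as edgeR's quasi-likelihood test giving an adjusted p of at most 0.05 and a log2 fold change of 0.5 or more in size. Over all 15600 genes tested, 6.58% were called higher and 6.4% lower. The groups did not overlap for 7 of the 10 genes, against 63.1% of all genes. The median log2 fold change of the 10 genes was -0.20, and that of all genes was -0.00363. These p-values measure the spread between 2 pooled samples per group.

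Adora2a, the high-affinity adenosine receptor of the pair, showed the largest difference. Its FPKM was 6.46 and 4.76 among the WT controls, 1.23 and 0.675 among the Unc93b1 3d/3d controls, 1.66 and 1.47 among the WT αMARCO libraries, and 0.58 and 0.687 among the Unc93b1 3d/3d αMARCO libraries. Both WT control libraries lay above the other 6. The counts behind these values were 381 and 267 among the WT controls and 60 and 41 among the Unc93b1 3d/3d controls. The level was 5.96-fold higher among the WT controls (log2 fold change 2.58 ± 0.30 SE, n = 2 libraries per group, edgeR adjusted p = 0.00101).

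Adora2b, the low-affinity adenosine receptor, in contrast had FPKM of 16.6 and 15.2 among the WT controls and 19.6 and 13.3 among the Unc93b1 3d/3d controls, and the groups overlapped (log2 fold change -0.04 ± 0.18, edgeR adjusted p = 0.904). Adora2b was therefore 2.57 and 3.20 times as high as Adora2a on the FPKM scale in the WT control libraries, and 15.9 and 19.7 times as high in the Unc93b1 3d/3d control libraries. This ratio is a description and carries no test.

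P2ry14, P2ry13 and P2ry12 sit side by side on the minus strand of chromosome 3 (GRCm38), at chr3:59113855-59153618, chr3:59207892-59210882 and chr3:59216272-59262871, with 5389 bases between P2ry12 and P2ry13. All 3 lie inside Med12l, a gene on the opposite strand with 56 to 194 counts per library. The strand setting of the counting was not given in the sources used here, so reads from Med12l and from these receptors in shared bases could not be told apart. The promoters (250 bases before to 50 after the transcript start, from the RefSeq table of GRCm38.p6, taking the entry nearest to the gene start in the count tables, 126, 0 and 114 bases from it for P2ry14, P2ry13 and P2ry12) are shown because the genes are neighbors with different behavior. Capitals mark the ETS core AGGAAG, which PU.1 and other ETS factors can bind, and the AP-1 site TGANTCA. The AP-1 site was found on both strands because the pattern, with N for any base, reads the same on each.
P2ry14, chr3:59153443-59153742, minus strand: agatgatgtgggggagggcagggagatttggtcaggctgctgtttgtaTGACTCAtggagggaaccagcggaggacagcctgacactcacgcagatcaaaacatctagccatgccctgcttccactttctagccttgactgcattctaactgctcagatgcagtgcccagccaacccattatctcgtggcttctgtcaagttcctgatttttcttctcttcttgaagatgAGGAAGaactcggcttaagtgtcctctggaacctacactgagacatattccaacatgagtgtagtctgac
P2ry13, chr3:59210833-59211132, minus strand: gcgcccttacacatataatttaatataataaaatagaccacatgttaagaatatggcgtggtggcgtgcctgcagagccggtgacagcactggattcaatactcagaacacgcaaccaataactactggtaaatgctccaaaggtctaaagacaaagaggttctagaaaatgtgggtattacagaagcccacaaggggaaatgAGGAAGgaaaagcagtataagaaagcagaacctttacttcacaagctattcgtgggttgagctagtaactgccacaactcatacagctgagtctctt
P2ry12, chr3:59262936-59263235, minus strand: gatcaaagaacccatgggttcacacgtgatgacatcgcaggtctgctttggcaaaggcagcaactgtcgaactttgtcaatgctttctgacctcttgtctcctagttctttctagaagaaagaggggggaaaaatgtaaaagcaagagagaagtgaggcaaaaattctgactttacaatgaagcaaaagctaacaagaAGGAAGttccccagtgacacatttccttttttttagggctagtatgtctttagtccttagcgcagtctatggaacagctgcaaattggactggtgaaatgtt
The ETS core was present 1 time in each of the 3 windows, 20, 47 and 52 bases before the start of P2ry14, P2ry13 and P2ry12 respectively (first base of the match), and in 35.4% of all 32817 promoter windows of this length. The AP-1 site was present 1 time in the P2ry14 window and in 7.81% of all windows. The interferon-stimulated element core (3.43% of windows) and the NF-κB consensus (4.5%) were searched on both strands and had no match in the 3 windows. The P2ry12 and P2ry13 windows each held 42.3% G and C, and the P2ry14 window held 49.3%. A match of these letters is not a measured binding site. RefSeq promoters were matched for 8 of the 10 genes.

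P2ry14, a receptor for UDP-glucose and related UDP-sugars, had FPKM of 6.09 and 5.41 among the WT controls, 2.33 and 2.38 among the Unc93b1 3d/3d controls, 2.66 and 2.39 among the WT αMARCO libraries, and 1.79 and 1.75 among the Unc93b1 3d/3d αMARCO libraries. The 2 WT control libraries were the highest and did not overlap any other group. In control TAMs it was 2.44-fold higher in WT (log2 fold change 1.29 ± 0.11 SE, n = 2 per group, edgeR adjusted p = 0.000154). Its counts were 1297 and 1096 among the WT controls and 409 and 523 among the Unc93b1 3d/3d controls, against 56 to 194 for Med12l.

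P2ry12, an ADP receptor best known from platelets and microglia, went the other way. Its FPKM was 7.97 and 6.82 among the WT controls, 12.2 and 14.9 among the Unc93b1 3d/3d controls, 5.85 and 6.78 among the WT αMARCO libraries, and 11.6 and 10.8 among the Unc93b1 3d/3d αMARCO libraries. All 4 Unc93b1 3d/3d libraries lay above all 4 WT libraries. In control TAMs P2ry12 was 1.83-fold lower in WT (log2 fold change -0.87 ± 0.14 SE, edgeR adjusted p = 0.00447). The call was lost with all 8 libraries in 1 model (adjusted p = 0.0569), and Med12l, which overlaps it, had a log2 fold change of -0.68 in the same direction (edgeR adjusted p = 0.113).

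P2ry13, the other ADP receptor of the cluster, had FPKM of 9.46 and 7.02 among the WT controls and 9.65 and 10.2 among the Unc93b1 3d/3d controls and was not called (log2 fold change -0.27 ± 0.16, edgeR adjusted p = 0.274). The UDP receptor gene P2ry6 had FPKM of 50.5 and 50.5 among the WT controls and 51.1 and 72.4 among the Unc93b1 3d/3d controls, where the 2 libraries differed from each other by more than the means of the groups did (log2 fold change -0.29 ± 0.15, edgeR adjusted p = 0.235). The P2ry6 value rested on these libraries. Without the first Unc93b1 3d/3d control library the log2 fold change was -0.52 and P2ry6 was called, and without the second it was -0.018.

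The ion channels and CD39 differed by less than the fold threshold. P2rx7 had FPKM of 13.1 and 14.7 among the WT controls and 19.0 and 18.2 among the Unc93b1 3d/3d controls, without overlap (log2 fold change -0.42 ± 0.10, edgeR adjusted p = 0.0187). P2rx4, a second ATP-gated channel whose gene lies 16111 bases from P2rx7 on chromosome 5, had FPKM of 29.5 and 33.6 among the WT controls and 24.5 and 25.9 among the Unc93b1 3d/3d controls (log2 fold change 0.33 ± 0.10, edgeR adjusted p = 0.0528). The FPKM ratio of P2rx4 to P2rx7 was 2.25 and 2.29 among the WT controls and 1.29 and 1.43 among the Unc93b1 3d/3d controls. Entpd1 had FPKM of 43.4 and 39.9 among the WT controls and 49.5 and 55.2 among the Unc93b1 3d/3d controls (log2 fold change -0.33 ± 0.10, edgeR adjusted p = 0.0483). Nt5e overlapped, with FPKM of 1.83 and 1.43 against 2.06 and 1.55 (log2 fold change -0.14 ± 0.20, edgeR adjusted p = 0.666).

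**Figure D2:**
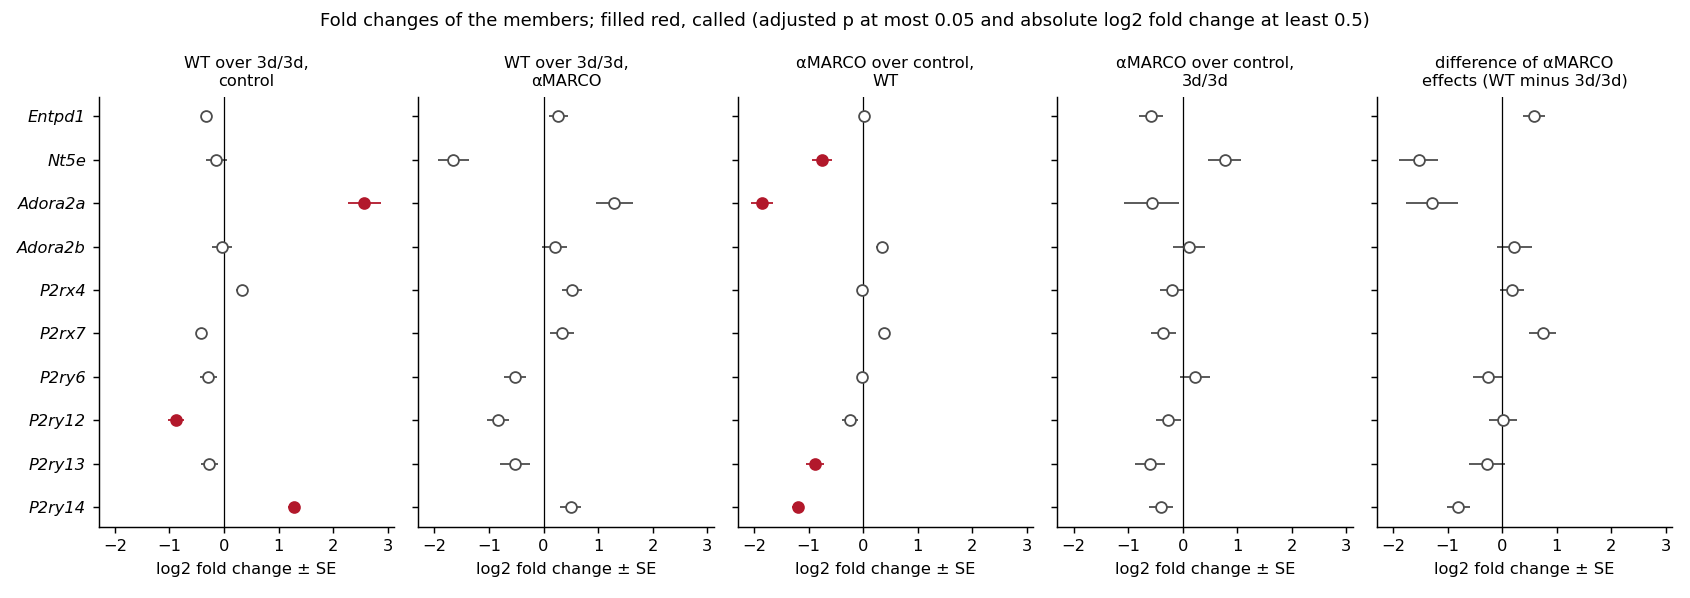
Log2 fold change (horizontal axis) with its standard error for the 10 genes in the 4 pairwise comparisons and for the difference of the αMARCO effects, from edgeR. Filled red points were called, which were Adora2a, P2ry12 and P2ry14 between the control genotypes and Nt5e, Adora2a, P2ry13 and P2ry14 for αMARCO in WT, and the other 3 panels had no call with both Unc93b1 3d/3d αMARCO libraries in the fit.

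The second comparison asked what αMARCO changed in WT TAMs. It shares the 2 WT control libraries with the comparison above, so the 2 sets of values are not independent. Of the 10 genes, 4 were called lower with αMARCO and none higher, and over all 15630 genes tested 11.8% were called lower and 8.91% higher. The groups did not overlap for 7 of the 10 genes, against 70.9% of all genes. The median log2 fold change was -0.13 for the 10 genes and -0.01 for all genes. Mitochondrial genes took 1.07 and 1.03% of the counts in the WT control libraries and 2.37 and 2.74% with αMARCO, and ribosomal protein genes took 4.09 and 3.90% against 2.66 and 2.79%; the part of these shares in the 4 calls was not tested.

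The receptors that fell were Adora2a, P2ry14 and P2ry13. Adora2a went from 6.46 and 4.76 FPKM in control to 1.66 and 1.47 with αMARCO, a 3.61-fold lower level (log2 fold change -1.85 ± 0.20 SE, n = 2 per group, edgeR adjusted p = 0.000237). P2ry14 went from 6.09 and 5.41 to 2.66 and 2.39 FPKM and was 2.30-fold lower (log2 fold change -1.20 ± 0.10, edgeR adjusted p = 8.89e-05). P2ry13 went from 9.46 and 7.02 to 4.41 and 4.65 FPKM and was 1.83-fold lower (log2 fold change -0.87 ± 0.16, edgeR adjusted p = 0.00317). For these 3 genes both αMARCO libraries lay below both control libraries. The P2ry13 call was lost with all 8 libraries in 1 model (adjusted p = 0.114). P2ry12, 5389 bases away, had 7.97 and 6.82 against 5.85 and 6.78 FPKM and was not called (log2 fold change -0.24 ± 0.14, edgeR adjusted p = 0.216).

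Nt5e, the last step to adenosine, also fell. Its FPKM was 1.83 and 1.43 in control and 0.902 and 1.04 with αMARCO, from 303 and 225 against 160 and 233 counts, a 1.68-fold lower level (log2 fold change -0.75 ± 0.18 SE, edgeR adjusted p = 0.0105). This call was lost without the first WT αMARCO library (adjusted p = 0.0948) and with all 8 libraries in 1 model (adjusted p = 0.169). Entpd1, the step before it, was level at 43.4 and 39.9 against 41.4 and 43.0 FPKM (log2 fold change 0.01 ± 0.08, edgeR adjusted p = 0.94). The FPKM ratio of Entpd1 to Nt5e was 23.7 and 27.9 among the WT controls and 45.9 and 41.2 among the WT αMARCO libraries.

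The ATP-gated P2rx7 passed the adjusted p but not the fold threshold, with FPKM of 13.1 and 14.7 in control and 17.7 and 18.9 with αMARCO, so that both αMARCO libraries were higher (log2 fold change 0.39 ± 0.09, edgeR adjusted p = 0.00697). Adora2b did likewise, with 16.6 and 15.2 against 19.2 and 21.6 FPKM (log2 fold change 0.34 ± 0.10, edgeR adjusted p = 0.0289). The FPKM ratio of Adora2b to Adora2a was 11.5 and 14.6 in the WT αMARCO libraries. P2rx4 and P2ry6 overlapped between the groups, with log2 fold changes of -0.02 ± 0.09 and -0.03 ± 0.08 (edgeR adjusted p = 0.898 and 0.808). The FPKM ratio of P2rx4 to P2rx7 was 1.76 and 1.68 among the WT αMARCO libraries.

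Markers of other cells moved with several of these genes. In sorted bulk samples, a lower level can come from fewer cells of a type or from less RNA per cell, and these cannot be told apart. All 11 T cell markers in the tables were called higher for WT than for Unc93b1 3d/3d control TAMs, and all 11 were called lower with αMARCO in WT. They summed to 107 and 116 CPM among the WT controls, 20.7 and 11.3 CPM among the Unc93b1 3d/3d controls, 11.7 and 17.5 CPM among the WT αMARCO libraries and 7.04 and 6.66 CPM among the Unc93b1 3d/3d αMARCO libraries, with none at 0. Adora2a, which T cells also express, stood at 20.1 and 14.8 CPM among the WT controls and 3.77 and 2.08 CPM among the Unc93b1 3d/3d controls. Of the 6 regulatory T cell markers, 5 were called higher among the WT controls and 6 lower with αMARCO in WT, and the sum was 99.8 and 87.8 CPM among the WT controls and 16.9 to 43.4 CPM elsewhere. Of the 7 mature dendritic cell markers tested, 3 were called higher among the WT controls and 5 lower with αMARCO in WT. Their sum was 984 and 534 CPM among the WT controls and 136 to 178 CPM in the other 6 libraries, where Il4i1 was at 0 in both Unc93b1 3d/3d control libraries. Of 10 nonclassical monocyte markers, 5 were called higher among the WT controls, and with αMARCO in WT 5 were called lower and 1 higher. Their sum was 1570 and 1530 CPM among the WT controls, 649 and 503 CPM among the Unc93b1 3d/3d controls and 1300 and 1460 CPM among the WT αMARCO libraries, with none at 0. Of 8 type 1 conventional dendritic cell markers, 3 were called higher among the WT controls and 4 lower with αMARCO in WT, and of 8 NK cell markers 2 were called higher among the WT controls, while 3 of the 7 tested were lower with αMARCO in WT. Of 7 proliferating cell markers, none was called between the control genotypes and 6 were lower with αMARCO in WT. Of the 8 B cell markers 3 were tested, and 1 of them, Cd79b, was called, higher among the WT controls and lower with αMARCO in WT. Endothelial markers summed to 294 and 298 CPM among the WT controls, 133 and 109 CPM among the Unc93b1 3d/3d controls, 198 and 201 CPM among the WT αMARCO libraries and 114 and 99.7 CPM among the Unc93b1 3d/3d αMARCO libraries, with 1 of 5 tested called higher among the WT controls and 2 of 5 lower with αMARCO in WT. With αMARCO in WT, 2 of 5 neutrophil, 2 of 4 epithelial or tumor cell and 4 of 10 macrophage markers were also called lower. In the same comparison 1 macrophage marker was called higher. The neutrophil sum went the other way, at 339 and 316 CPM among the WT controls and 377 and 380 CPM among the WT αMARCO libraries. The sort gates given above select for macrophages. The part that other cells passing the sort had in the Adora2a and P2ry14 values was not tested.

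Between the control genotypes the resident-like macrophage markers moved with P2ry12. Of 8 such genes, 6 were called lower and 1 higher for WT than for Unc93b1 3d/3d control TAMs, and they summed to 1810 and 1400 CPM among the WT controls against 3890 and 4610 CPM among the Unc93b1 3d/3d controls, with none at 0. With αMARCO in WT they did not follow P2ry12: 2 were called higher and 1 lower, and both sums were above those of the WT controls, while P2ry12 went from 20.6 and 17.6 to 14.9 and 17.3 CPM and was not called. In the αMARCO groups their sums overlapped, at 2550 and 2300 CPM in WT and 2820 and 2030 CPM in Unc93b1 3d/3d, while P2ry12 stood at 29.9 and 27.6 CPM among the Unc93b1 3d/3d αMARCO libraries. Platelet and megakaryocyte markers, 8 genes of which 2 passed the filter and 1 was called lower among the WT controls, summed to 15.0 and 9.76 CPM among the WT controls and 48.7 and 62.2 CPM among the Unc93b1 3d/3d controls, with Gp1bb at 0 in both WT control libraries. Fibroblast markers were lower together with Nt5e for αMARCO in WT, where 3 of 7 were called lower. Between genotypes under αMARCO they were also lower in WT together with Nt5e, where the fibroblast sums did not overlap, the median log2 fold change of the 7 genes was -1.78 and 0 of 7 were called by edgeR (5 of 7 at an unadjusted p of at most 0.05; Nt5e was not called either). They did not follow Nt5e in the remaining comparisons: 3 of 7 were called lower among the WT controls than among the Unc93b1 3d/3d controls, where Nt5e overlapped, and with αMARCO in Unc93b1 3d/3d the mean of their sum went from 175 to 126 CPM while the mean FPKM of Nt5e went from 1.80 to 3.04. The fibroblast sum was 112 and 87.7 CPM among the WT controls, 190 and 160 CPM among the Unc93b1 3d/3d controls, 39.7 and 26.6 CPM among the WT αMARCO libraries and 172 and 80.4 CPM among the Unc93b1 3d/3d αMARCO libraries. Their part in the P2ry12 and Nt5e values was not tested.

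**Figure D3:**
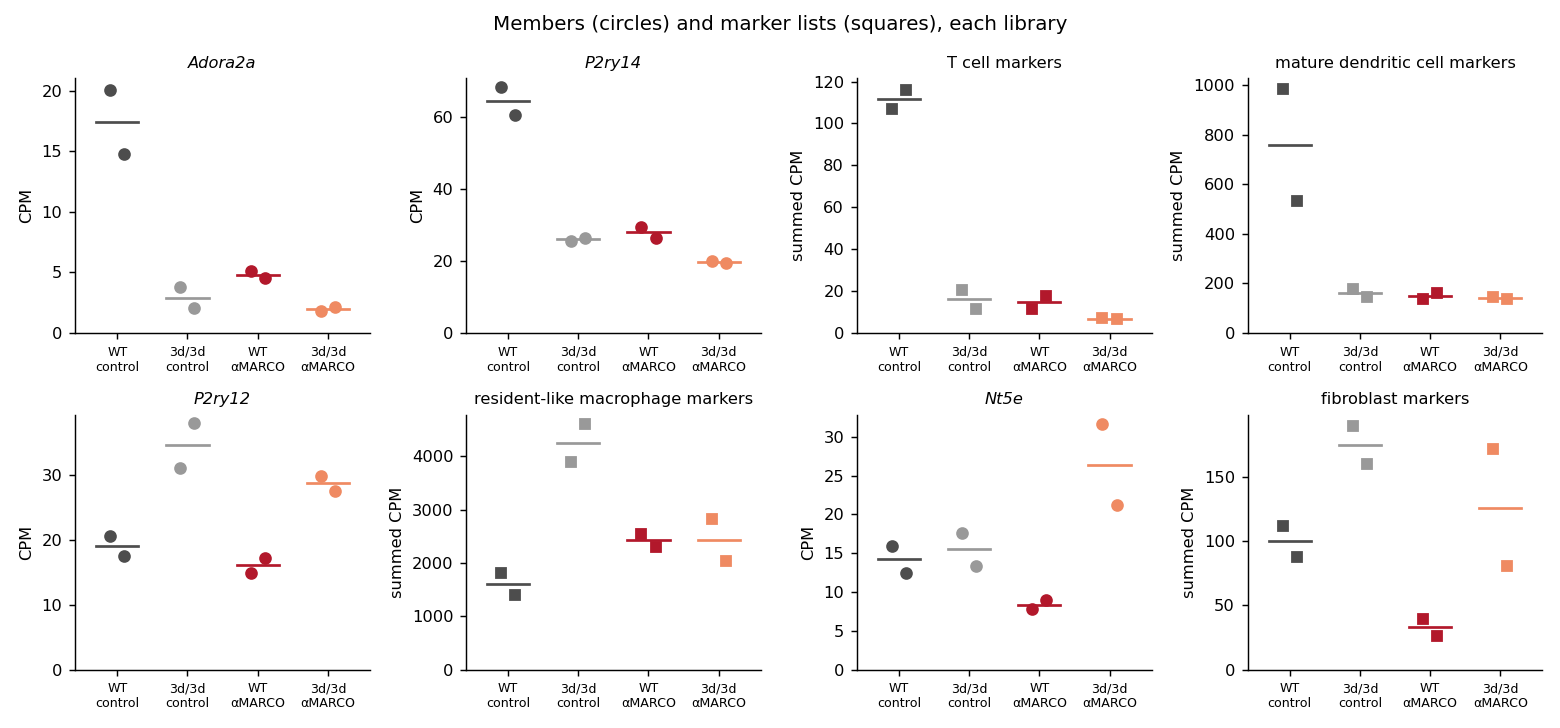
CPM of 4 members (circles) and summed CPM of 4 marker lists (squares) in each library, with the mean of each group as a line and all vertical axes starting at 0. Adora2a, P2ry14, T cell and mature dendritic cell markers were highest in the 2 WT control libraries, and Nt5e and fibroblast markers were lowest in the 2 WT αMARCO libraries.

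Among the 16620 genes compared over the 8 libraries, those with a pattern most like Adora2a by Pearson correlation of log2 CPM were Arhgef10 (r = 0.993), Cd7 (r = 0.993) and Il27ra (r = 0.99), given as a description over libraries that share depth and sort. Cd7 is a surface protein of T and NK cells, and Il27ra is a subunit of the interleukin-27 receptor. Cd7 stood at 6.05 and 3.94 CPM among the WT controls, at 0.874 and 1.0 CPM among the WT αMARCO libraries and at 0.181 to 0.879 CPM in the 4 Unc93b1 3d/3d libraries.

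With αMARCO given to both genotypes, none of the 10 genes was called between WT and Unc93b1 3d/3d, and 0% of the 15722 genes tested by edgeR were called. At an unadjusted p of at most 0.05, 6 of the 10 genes and 1076 of all genes passed, and DESeq2 called 195 genes, Nt5e among them. The groups did not overlap for 9 of the 10 genes, against 44.3% of all genes. Nt5e differed most, with FPKM of 0.902 and 1.04 among the WT αMARCO libraries and 3.61 and 2.46 among the Unc93b1 3d/3d αMARCO libraries, so that both Unc93b1 3d/3d libraries lay above both WT libraries (log2 fold change -1.65 ± 0.28, edgeR adjusted p = 0.336; DESeq2 adjusted p = 0.00183). The summed fibroblast markers lay the same way, with means of 33.2 CPM in WT and 126 CPM in Unc93b1 3d/3d, and their part in the Nt5e value was not tested. Adora2a was at 1.66 and 1.47 against 0.58 and 0.687 FPKM (log2 fold change 1.30 ± 0.34, edgeR adjusted p = 0.566), and P2ry12 was at 5.85 and 6.78 against 11.6 and 10.8 FPKM (log2 fold change -0.83 ± 0.20, edgeR adjusted p = 0.522).

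These values depended on the Unc93b1 3d/3d αMARCO library that was left out, where the remaining single library is assumed to vary like the other group. Without the second library, which stood apart, 4 of the 10 genes and 7.45% of all genes (1252) were called by edgeR. Without the first library, 7 of the 10 genes and 38.6% of all genes (6366) were called. Nt5e, Adora2a and P2ry12 were called in both fits. For Nt5e the log2 fold change was -1.91 without the second library and -1.33 without the first (edgeR adjusted p = 1.39e-08 and 4.4e-08). For Adora2a the values were 1.41 and 1.19 (edgeR adjusted p = 0.00588 and 0.00344), and for P2ry12 -0.89 and -0.77 (edgeR adjusted p = 0.00012 and 2.7e-05). P2ry13 was called only without the second library (log2 fold change -0.79, edgeR adjusted p = 0.00154, and -0.20 without the first, adjusted p = 0.398). P2rx4, P2rx7, P2ry6 and P2ry14 were called only without the first library, with log2 fold changes of 0.64, 0.59, -0.67 and 0.53, against 0.41, 0.13, -0.37 and 0.48 without the second.

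In Unc93b1 3d/3d TAMs, αMARCO changed none of the 10 genes at the thresholds, and 0% of 15428 genes were called by edgeR. At an unadjusted p of at most 0.05, 2 of the 10 genes and 744 of all genes passed, and DESeq2 called 52 genes. The groups did not overlap for 7 of the 10 genes, against 38.9% of all genes. Without the second αMARCO library 2 of the 10 genes and 3.41% of all genes were called, and without the first 3 of the 10 and 34.1% of all genes. This comparison shares its αMARCO libraries with the one before and its control libraries with the first. Entpd1 had FPKM of 49.5 and 55.2 in control and 34.7 and 34.9 with αMARCO, with both αMARCO libraries below (log2 fold change -0.57 ± 0.22, edgeR adjusted p = 0.823). It was the only one of the 10 called whichever αMARCO library was left out (log2 fold change -0.57 both times, edgeR adjusted p = 0.0094 without the second and 0.00194 without the first). Nt5e had FPKM of 2.06 and 1.55 in control and 3.61 and 2.46 with αMARCO (log2 fold change 0.77 ± 0.30, edgeR adjusted p = 0.823), and was called without the second library (1.03, adjusted p = 0.000129) but not without the first (0.47, adjusted p = 0.0824). The FPKM ratio of Entpd1 to Nt5e was 9.60 and 14.2 in these αMARCO libraries. P2rx7 had FPKM of 19.0 and 18.2 in control and 16.5 and 12.2 with αMARCO (log2 fold change -0.36 ± 0.23, edgeR adjusted p = 0.823), and was called only without the first library (-0.59, adjusted p = 0.000766). P2ry13, at 9.65 and 10.2 against 7.71 and 5.21 FPKM, was also called only without the first library (-0.92, edgeR adjusted p = 0.000665, and -0.34 without the second). Adora2a stayed low and overlapped, with FPKM of 1.23 and 0.675 against 0.58 and 0.687 (log2 fold change -0.57 ± 0.51, edgeR adjusted p = 0.823; -0.68 without the second αMARCO library and -0.45 without the first, neither called).

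Whether αMARCO acted differently in the 2 genotypes was tested as the difference of the WT and Unc93b1 3d/3d effects in 1 fit of all 8 libraries. None of the 10 genes was called and 0% of 16620 genes were called by edgeR, while at an unadjusted p of at most 0.05 5 of the 10 genes and 2549 of all genes passed. DESeq2 called 200 genes, Nt5e among them (adjusted p = 0.0421). The differences with an unadjusted p below 0.05 were those of Nt5e (-1.53 ± 0.36 on the log2 scale, edgeR adjusted p = 0.314), Adora2a (-1.28 ± 0.47, adjusted p = 0.318), P2ry14 (-0.81 ± 0.21, adjusted p = 0.318), P2rx7 (0.74 ± 0.25, adjusted p = 0.318) and Entpd1 (0.58 ± 0.20, adjusted p = 0.318). Without the second Unc93b1 3d/3d αMARCO library 2 of the 10 genes and 3.45% of all genes were called, and without the first 5 of the 10 and 36.4% of all genes. Nt5e and P2ry14 were called whichever of these libraries was left out. For Nt5e the difference was -1.80 without the second library and -1.22 without the first (edgeR adjusted p = 0.00289 and 0.00321), and for P2ry14 it was -0.84 and -0.78 (edgeR adjusted p = 0.018 and 0.00295). P2rx7 was called without the first library (0.99, edgeR adjusted p = 7.3e-05) and not without the second (0.52, adjusted p = 0.0637), as were Entpd1 (0.59 and 0.56, adjusted p = 0.00572 and 0.0539) and Adora2a (-1.41 and -1.20, adjusted p = 0.0295 and 0.167).

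**Figure D4:**
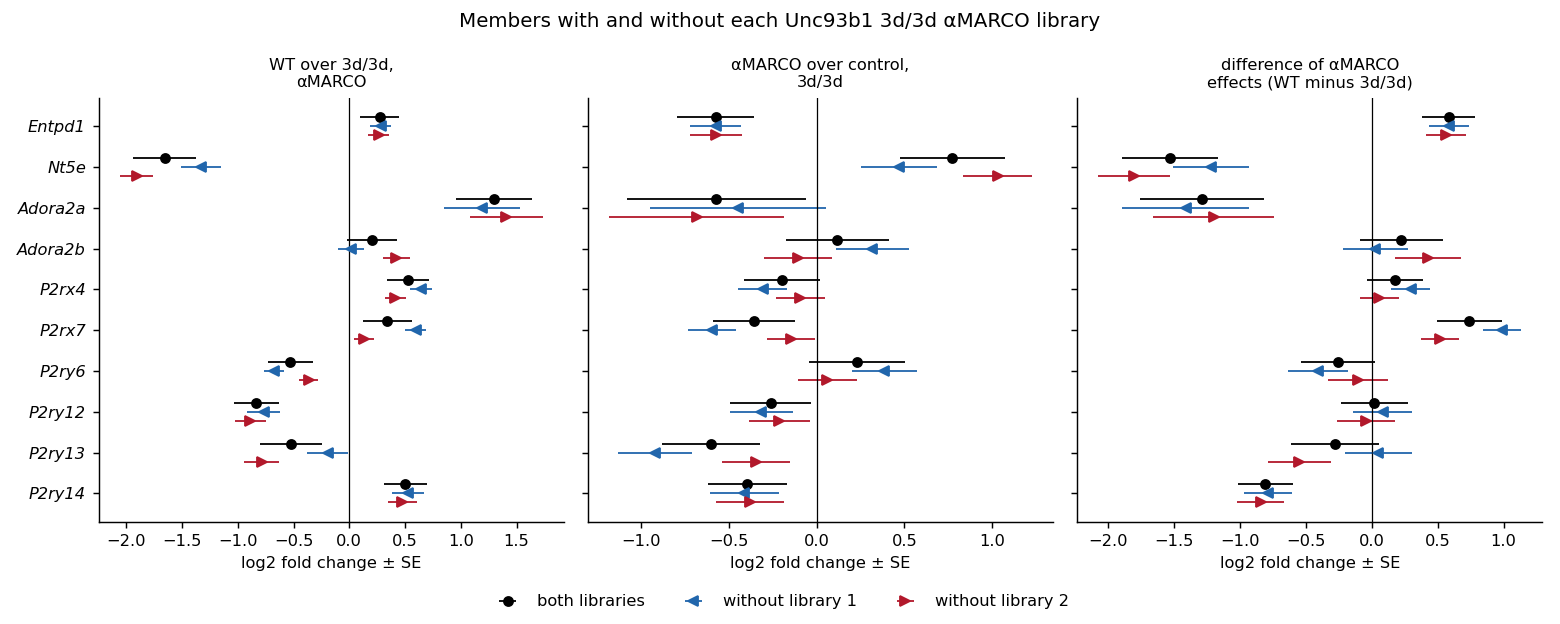
Log2 fold change with its standard error (horizontal axis) of the 10 genes in the 3 comparisons that use the Unc93b1 3d/3d αMARCO libraries, with both libraries (black circles), without the first (blue) and without the second (red). Nt5e kept its sign in each panel and setting, whereas P2rx7 between genotypes under αMARCO ranged from 0.13 to 0.59.

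The other genes of the pathway were read from a list of 48, of which 44 were in the tables. Between the control genotypes 39 were tested, and 7 were called higher and 5 lower in WT, which is 30.8% of them against 13% of all genes tested. The list was chosen with earlier results of these data known, so these shares are a description and carry no test. With all 8 libraries in 1 model 4 of these pathway genes were called in place of 12. Over all genes, 364 of 16620 were called in that model in place of 2025, so calls fell among all genes as well. Of the 7 genes of the inflammasome downstream of P2X7, 3 were higher in WT, none lower and 4 not called. Nlrp3 and Il18 were not called and overlapped (log2 fold changes -0.14 and -0.07, edgeR adjusted p = 0.414 and 0.729). Gsdmd and Nek7 were not called either (0.21 and 0.34, edgeR adjusted p = 0.154 and 0.0719). Pycard, the adaptor ASC, was at 119 and 137 CPM among the WT controls and 30.9 and 37.1 CPM among the Unc93b1 3d/3d controls (log2 fold change 1.89 ± 0.12, edgeR adjusted p = 2.3e-05), and Casp1, the protease that matures interleukin-1β, was at 112 and 127 against 65.0 and 74.8 CPM (0.76 ± 0.11, adjusted p = 0.0022). Of the 8 genes of adenosine clearance and transport, 2 were higher and 1 lower, with the uptake carriers Slc28a2 at 152 and 219 against 78.7 and 67.1 CPM (1.33 ± 0.19, edgeR adjusted p = 0.00554) and Slc29a1 at 113 and 111 against 51.3 and 59.8 CPM (0.99 ± 0.10, adjusted p = 0.000413).

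Among the receptors outside the 10, P2ry10 and P2ry10b, lysophospholipid receptors despite their names, were higher among the WT controls (log2 fold changes 1.86 ± 0.34 and 1.16 ± 0.14, edgeR adjusted p = 0.0261 and 0.000838). The adenosine A3 receptor gene Adora3 was lower, at 4.68 and 3.44 against 8.85 and 12.4 CPM (-1.41 ± 0.27, edgeR adjusted p = 0.0079). P2rx1, a channel of platelets, had 3 and 3 counts among the WT controls and 15 and 17 among the Unc93b1 3d/3d controls, a rate 5.81 times as high in the latter (95% exact interval 2.40 to 17.0, counting error only; edgeR adjusted p = 0.0475). The remaining called genes, named after their values were seen, were Il1b (higher) and Enpp1, Slc29a3 and Panx1 (lower).

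For αMARCO in WT, 36 of these genes were tested, and 3 were called higher and 5 lower. This share of 22.2% lay near the 20.7% of all genes called, so the count is no result about the pathway. With all 8 libraries in 1 model 2 were called, and 164 of all 16620 genes in place of 3236. P2ry10 fell from 60.0 and 43.5 to 9.07 and 12.2 CPM (log2 fold change -2.26 ± 0.20, edgeR adjusted p = 0.000541). Dpp4, which encodes CD26, fell from 33.6 and 21.2 to 7.62 and 7.56 CPM (-1.84 ± 0.21, edgeR adjusted p = 0.000694). The part that other cells passing the sort had in the P2ry10 and Dpp4 values was not tested. Adenosine kinase Adk, Pycard and the transporter Slc29a1 were lower as well (-0.72, -0.58 and -0.57, edgeR adjusted p = 0.00386, 0.00112 and 0.000651). The vesicular nucleotide transporter Slc17a9 (0.72, edgeR adjusted p = 0.0315), Entpd7 (0.72, adjusted p = 0.000977) and the lysosomal nucleoside carrier Slc29a3 (0.56, adjusted p = 0.00112) were higher. None of the 36 genes tested between genotypes under αMARCO, of the 39 tested for αMARCO in Unc93b1 3d/3d, and of the 39 tested for the difference of effects was called by edgeR, while 8, 5 and 13 of them had an unadjusted p of at most 0.05 and DESeq2 called 3 and 1 in the first and second of these comparisons. Leaving out either Unc93b1 3d/3d αMARCO library raised the number of pathway genes called in the first and second of them. The number of all genes called rose there too, to the shares given above for these comparisons.

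**Figure D5:**
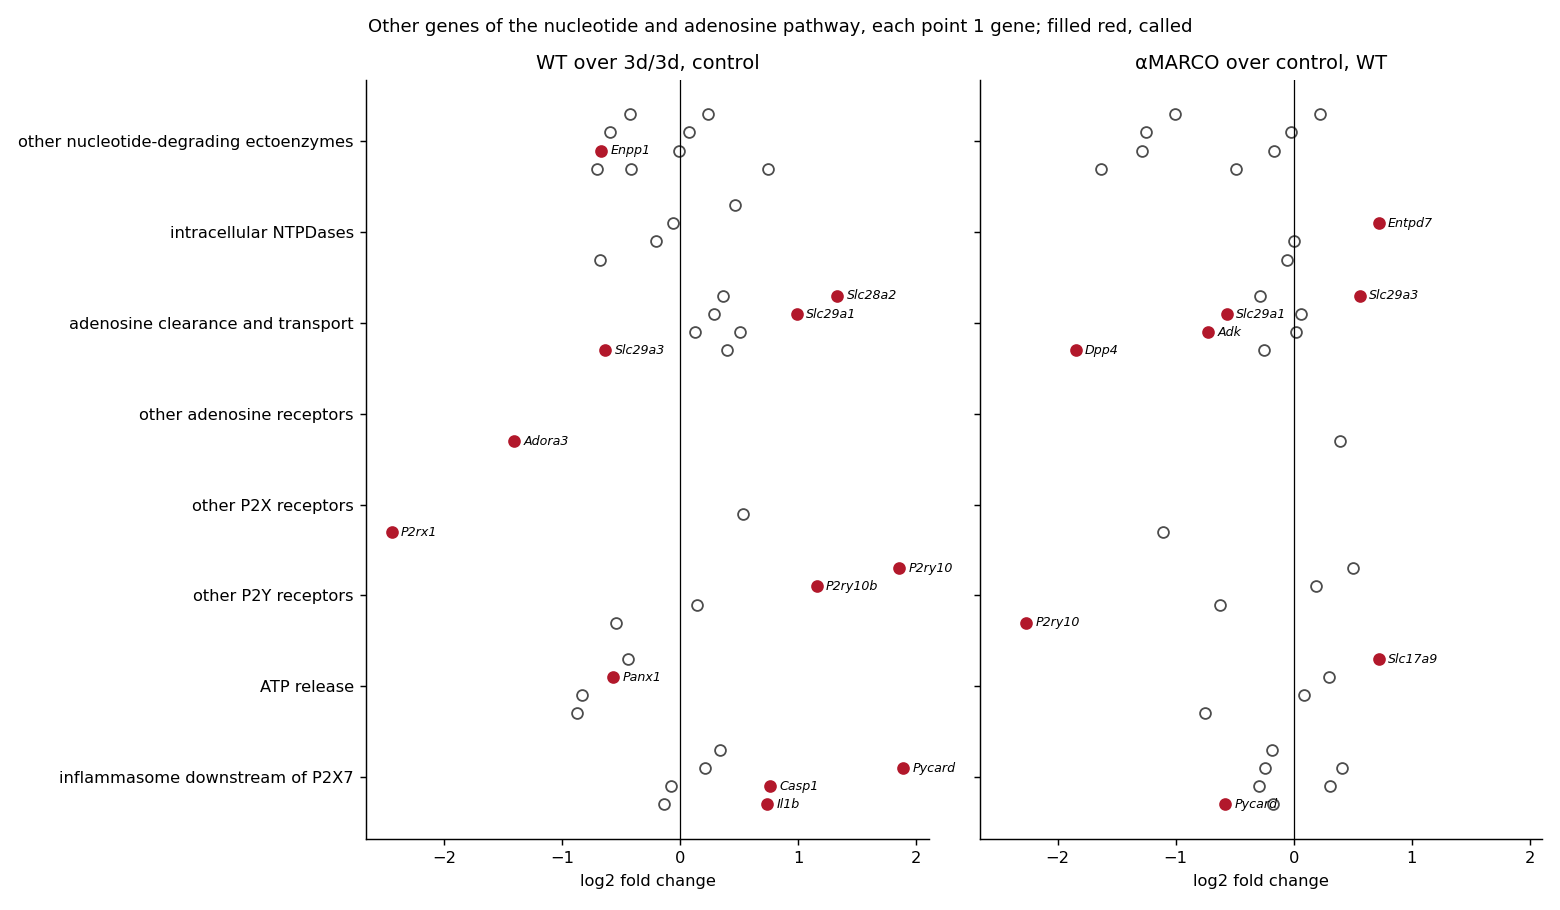
Log2 fold change (horizontal axis) of each tested gene of the pathway list, by role (rows, with points spread vertically for legibility), between the control genotypes and for αMARCO in WT. Filled red points with names were called, 7 higher and 5 lower on the left and 3 higher and 5 lower on the right, with P2ry10 and Pycard on opposite sides of 0 in the panels that share the WT control libraries.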

How the data were processed

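Poly-A RNA of 8 libraries was sequenced on an Illumina NovaSeq. Per the labels and methods, the authors cleaned reads with fastp, aligned them to GRCm38 with HISAT2 2.0.5 and counted genes with featureCounts 1.5.0, without normalization of the deposited counts. FPKM, as deposited by the authors, scales counts by gene length and by a constant for each library (their methods name TPM). It was 0.955 to 1.1 times the value from gene length and library total alone. Columns with the authors' normalized values, fold changes and p-values were not used. The 3 deposited tables were joined by gene identifier, and 0 of the 95230 counts that tables share differed. Absent genes were set to 0 counts.

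Tests used edgeR 4.0.16 in R 4.3.3 (TMM, filterByExpr, robust quasi-likelihood, Benjamini-Hochberg over all genes tested) on the 4 libraries of each comparison, or on all 8 for the difference of effects, after a test on simulated data. CPM was scaled by TMM over the 8 libraries. The 10 genes and all lists were chosen with earlier results of these data known. Named genes were all 10, the called pathway genes (up to 8 with the largest change), Unc93b1, overlapping neighbors and the 3 genes most like the leading member. The inflammasome genes not called between the control genotypes were named as well. Alternatives were DESeq2 1.42.0, other scalings, filters, models and thresholds, a replicate block, FPKM recomputed from the counts, and leaving out each library.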

Additional observations from a re-analysis of the deposited data

Results flagged for a closer look

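For Nt5e and P2rx7 every αMARCO library lay on 1 side of both control libraries in WT and on the opposite side in Unc93b1 3d/3d. Nt5e had a log2 fold change of -0.75 in WT (edgeR adjusted p = 0.0105, called, but 0.0948 without the first WT αMARCO library and 0.169 with all 8 libraries in 1 model) and of 0.77 in Unc93b1 3d/3d (edgeR adjusted p = 0.823, not called). The difference of its effects was -1.53 on the log2 scale (edgeR adjusted p = 0.314). P2rx7 had 0.39 in WT (edgeR adjusted p = 0.00697, under the fold threshold) and -0.36 in Unc93b1 3d/3d (edgeR adjusted p = 0.823). Neither was called with both libraries of each group in the fit. The difference of its effects was 0.74 (edgeR adjusted p = 0.318). In Unc93b1 3d/3d, the calls of Nt5e and P2rx7 depended on which αMARCO library was left out, as given above. With all 8 libraries in the fit, neither difference of effects passed the adjusted threshold in edgeR with genes filtered on low counts. That of Nt5e passed in DESeq2 (adjusted p = 0.0421) and in edgeR without a filter beyond 1 count (adjusted p = 0.0293). Calls of both differences changed when 1 Unc93b1 3d/3d αMARCO library was left out, as given above, and both differences kept their sign.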

How the results depend on the processing

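With all 8 libraries in 1 model, 364 genes instead of 2025 were called between the control genotypes, 108 instead of 0 between genotypes under αMARCO and 164 instead of 3236 for αMARCO in WT, and the calls of P2ry12 (adjusted p = 0.0569, and 9.03e-08 to 0.0173 under the other alternatives), Nt5e (0.169, and 0.000256 to 0.0948) and P2ry13 (0.114, and 1.45e-07 to 0.0315) were lost in edgeR. That model called 1 of the 10 genes between genotypes under αMARCO and 2 for αMARCO in WT, and 4, 2 and 2 pathway genes between the control genotypes, between genotypes under αMARCO and for αMARCO in WT. Without the fold threshold 5 of the 10 genes and 18.8% of all genes were called between the control genotypes. With a log2 threshold of 1, 6 pathway genes and 6.1% of all genes were called there, and 2 of the 10 genes, 2 pathway genes and 8.74% of all genes for αMARCO in WT. DESeq2 called 1 of the 10 genes and 3 pathway genes between genotypes under αMARCO, 1 pathway gene for αMARCO in Unc93b1 3d/3d and 1 of the 10 genes for the difference of effects. Without a filter beyond 1 count these numbers were 1, 2, 4 and 1, with 107 of 25782, 174 of 24858 and 152 of 26939 genes called in these 3 comparisons.

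Same-numbered libraries carry the same replicate number, and no pairing or batch was given for them in the sources used here. The correlations of their deviations between groups ranged from -0.0768 to 0.135. Whether same-numbered libraries shared a batch was not tested. With the replicate block, 2395, 97, 3086, 5 and 0 genes were called between the control genotypes, between genotypes under αMARCO, for αMARCO in WT, for αMARCO in Unc93b1 3d/3d and for the difference, and 1 of the 10 genes and 1 pathway gene between genotypes under αMARCO.

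Leaving out each library in turn, 0 to 7 of the 10 genes and 1 to 15 pathway genes were called between genotypes under αMARCO, 0 to 3 and 0 to 13 for αMARCO in Unc93b1 3d/3d, and 0 to 5 of the 10 genes for the difference. The highest of these came from leaving out the first Unc93b1 3d/3d αMARCO library, where 38.6, 34.1 and 36.4% of all genes were called. For αMARCO in WT, 1940 genes were called without the first WT αMARCO library and 2334 without the second. Log2 fold changes that were not called and changed sign ranged, with 1 library left out, from -0.34 to 0.074 for Nt5e and -0.30 to 0.26 for Adora2b between the control genotypes. For αMARCO in WT they ranged from -0.055 to 0.064 for Entpd1, -0.11 to 0.075 for P2rx4 and -0.061 to 0.013 for P2ry6. For αMARCO in Unc93b1 3d/3d they ranged from -0.13 to 0.42 for Adora2b and -0.00052 to 0.52 for P2ry6. For the difference they ranged from -0.074 to 0.47 for Adora2b, -0.14 to 0.16 for P2ry12 and -0.55 to 0.049 for P2ry13. P2rx4 for αMARCO in WT was 0.00029 with at least 10 counts in every library, and Adora2b for αMARCO in Unc93b1 3d/3d was -0.012 with library totals alone, which moved the median of all genes by -0.11 there and by 0.11 for the difference. The cause of these shifts was not tested. FPKM recomputed from the counts differed from the deposited FPKM by a constant for each library (0.955 to 1.1 times). Depth limits Adora2a most, with 31 to 60 counts in the Unc93b1 3d/3d libraries.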
